A study of Homo sapiens with 6 samples.

Results

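The 10 genes described here encode SR proteins, a family of splicing factors: SRSF1, SRSF2, SRSF3, SRSF4, SRSF5, SRSF6, SRSF7, SRSF9, SRSF10 and SRSF11. They were taken by symbol and make up 10 of the 12306 rows of the deposited gene table. The cells were 92.1, an established uveal melanoma line of human origin grown in serum-containing medium, and their RNA was sequenced after 2 h with 1 µM VS-4718 or with DMSO, the vehicle. VS-4718 inhibits focal adhesion kinase, which relays signals from integrins. Each group held 3 libraries, called independent samples in the design text. No label states whether separate cultures were used, so the p-values cover only the spread among these libraries, which may be technical.

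SR proteins carry RNA recognition motifs and a tail rich in arginine and serine. They bind exonic enhancer sequences, recruit the spliceosome and help exons to be kept in the mature message. Kinases of the SRPK and CLK families phosphorylate the tail, which sets where the proteins sit in the nucleus and whether they act. Several SR proteins also shuttle to the cytoplasm and serve as adaptors for mRNA export. Many SR genes restrain their own output: a surplus of protein favours a transcript form with an early stop codon, which nonsense-mediated decay removes.

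The family was chosen by its values in this same comparison: SRSF3 and SRSF7 were lower with VS-4718, and most other members leaned the same way. The differences below are therefore given as a description, and nothing about the family as a whole is tested with them. Adjusted p-values are those of limma fitted to all 9229 rows with a mean log2 value over 0.70, with Benjamini-Hochberg adjustment over those rows. All 10 members were in that fit.

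The table holds 1 log2 value per gene and library, on a scale like TPM (reads per transcript length, scaled to a fixed total). This scale keeps no read total, and the depth of each library is unknown. The columns summed to between 836696 and 840714 linear units with VS-4718, against 836527 to 837670 in vehicle. Row names follow mouse usage in capitals although the notes name a human build, and 9349 of the 12306 rows carry a current human symbol. The transcript set behind the values is not stated in the sources used here. A level therefore describes a row, and rows of related genes may share reads. Of 9 melanocyte markers 7 had a row, and their summed level ranged from 7018 to 7689 linear units with VS-4718 and from 7224 to 7808 in vehicle. PMEL, TYRP1, SOX10 and MITF were well above 1 linear unit in every library, while TYR and MLANA lay below it in each; TRPM1 and CDH19 had no row among those used here. Rows were present for 5 of 6 fibroblast, 1 of 5 immune, 1 of 5 epithelial and 2 of 4 endothelial markers. The rows for fibroblast, immune and epithelial markers summed to at most 1.72, 0.142 and 0.501 linear units in any library, and the endothelial rows to at most 8.60. The immune and epithelial values each rest on 1 gene, PTPRC and KRT18, and say nothing of the markers without a row.

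The transcripts of each member were read from GENCODE 29 (GRCh38), independently of the expression values, to show the early-stop forms annotated for them. All 10 members had at least 1 transcript annotated as a target of nonsense-mediated decay, against 35.6% of the 19969 protein coding genes, and 8 of the 10 had a retained-intron transcript, against 46.1%. SRSF7 had the most decay transcripts, 6 of its 12. In 5 members (SRSF3, SRSF4, SRSF6, SRSF7 and SRSF9) the early stop codon of such a transcript lay in an internal exon that no protein coding transcript of the gene overlaps. Exons of this kind are known as poison exons. SRSF3 has 2 of them, of 456 bases at chr6:36599821-36600276 and of 98 bases at chr6:36598429-36598526 (plus strand). SRSF7 has 3 (minus strand): one of 449 bases at chr2:38748898-38749346, one of 276 bases within it at chr2:38748898-38749173, and one of 69 bases at chr2:38747062-38747130. SRSF4 has 2, of 175 bases at chr1:29165890-29166064 and of 195 bases at chr1:29159864-29160058 (minus strand). SRSF6 has 1, of 268 bases at chr20:43459153-43459420 (plus strand), and SRSF9 has 1, of 90 bases. For each of 4 genes, the bases leading up to the stop codon of the exon given first above are printed 5′ to 3′, with the stop codon in capitals.
SRSF3: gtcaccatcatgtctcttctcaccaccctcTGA
SRSF7: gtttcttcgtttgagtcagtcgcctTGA
SRSF6: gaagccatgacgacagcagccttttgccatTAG
SRSF4: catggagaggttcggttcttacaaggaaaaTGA
The SRSF3 stop codon shown begins at base 32 of its exon and the SRSF7 stop codon shown at base 26. The deposited values are per gene, so full-length and early-stop forms cannot be told apart in them, and it is not stated in the sources used here whether the rows include early-stop forms.

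The promoters of SRSF3 and SRSF7, the members with the largest differences below, are shown beside that of SRSF9, the member with a higher mean. RefSeq windows (GRCh38.p14) matched 9 members, all but SRSF2. Only the 250 bases before each start were searched. Capitals mark matches to TATAAA (the TATA box), CCAAT (the CCAAT box) and TGACG (the half-site of the cAMP response element) on either strand. The windows are chr6:36594112-36594361 (plus strand) for SRSF3, chr2:38751362-38751611 (minus strand) for SRSF7 and chr12:120469749-120469998 (minus strand) for SRSF9. SRSF7 has a second start further upstream, at 38751494.
SRSF3: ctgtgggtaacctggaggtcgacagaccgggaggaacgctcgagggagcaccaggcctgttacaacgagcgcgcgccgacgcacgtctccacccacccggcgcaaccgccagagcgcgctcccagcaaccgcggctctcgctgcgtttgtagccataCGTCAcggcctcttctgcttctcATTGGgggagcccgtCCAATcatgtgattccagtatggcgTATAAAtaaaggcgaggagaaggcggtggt
SRSF7: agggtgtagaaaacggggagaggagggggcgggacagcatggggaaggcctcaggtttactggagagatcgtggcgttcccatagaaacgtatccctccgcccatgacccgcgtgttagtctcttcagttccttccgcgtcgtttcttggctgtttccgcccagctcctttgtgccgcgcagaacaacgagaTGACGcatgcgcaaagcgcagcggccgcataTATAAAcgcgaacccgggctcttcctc
SRSF9: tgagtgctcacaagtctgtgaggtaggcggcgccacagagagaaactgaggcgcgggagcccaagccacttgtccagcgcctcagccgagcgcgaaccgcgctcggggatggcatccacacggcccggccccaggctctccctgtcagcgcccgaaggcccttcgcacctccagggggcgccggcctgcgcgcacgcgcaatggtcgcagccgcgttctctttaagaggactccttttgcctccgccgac
SRSF3 and SRSF7 each had TATAAA close to the start, beginning 30 and 27 bases before it in the windows shown. The window of the other SRSF7 start held none of the 3 capitalised motifs; the GC box was the only motif matched there. SRSF11 had TATAAA too, on the reverse strand, 206 bases before one of its starts, and the motif occurs in 10.7% of 35116 windows of all genes. TGACG was in the windows of 5 members (SRSF1, SRSF3, SRSF5, SRSF7 and SRSF11), against 21.2% of all windows, and CCAAT was in SRSF3 alone, against 32.0%. The SRSF9 window held no match to any of the 3. Of 6 other motifs, GGGCGG (GC box) was in SRSF4, SRSF6 and SRSF7 (42.6% of all windows), ACTTCCG (ETS core) in SRSF4 and SRSF5 (5.69%) and TGCGCA (NRF1 core) in SRSF7 and SRSF10 (6.89%). CACGTG (E-box, 6.34%), GGAATG (TEAD site, 11.9%) and GCCATNTT (YY1 core, 3.86%) were in none of the 9. The only pair of matches that overlapped was TGACG with ACTTCCG in SRSF5. The motifs were picked after the sequences had been seen, and a match describes letters in a window only.

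Across the family, 9 of 10 SR protein genes were lower on average after VS-4718 and SRSF9 was higher. SRSF3 and SRSF7 fell past the threshold over all rows. In bulk RNA, fewer cells of a kind and less RNA per cell cannot be told apart. The median log2 fold change of the 10 was -0.30, from -0.79 for SRSF7 to 0.04 for SRSF9, while the median of all tested rows was -0.03. Of all tested rows, 0.130% passed (12 rows): 0.0867% were lower and 0.0433% higher. A lower mean was found in 58.2% of rows. The groups did not overlap in 16.4% of rows, of which 11.2% were lower and 5.15% higher (as shares of all rows). An unadjusted limma p under 0.05 was found in 9.76% of rows, of which 6.74% had a lower mean and 3.02% a higher one (as shares of all rows). Among the members 8 were lower with no overlap, SRSF9 was higher with none, and SRSF10 overlapped; 9 were lower with an unadjusted p under 0.05. Since this contrast chose the family, nothing is read from these counts.

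**Figure D1:**
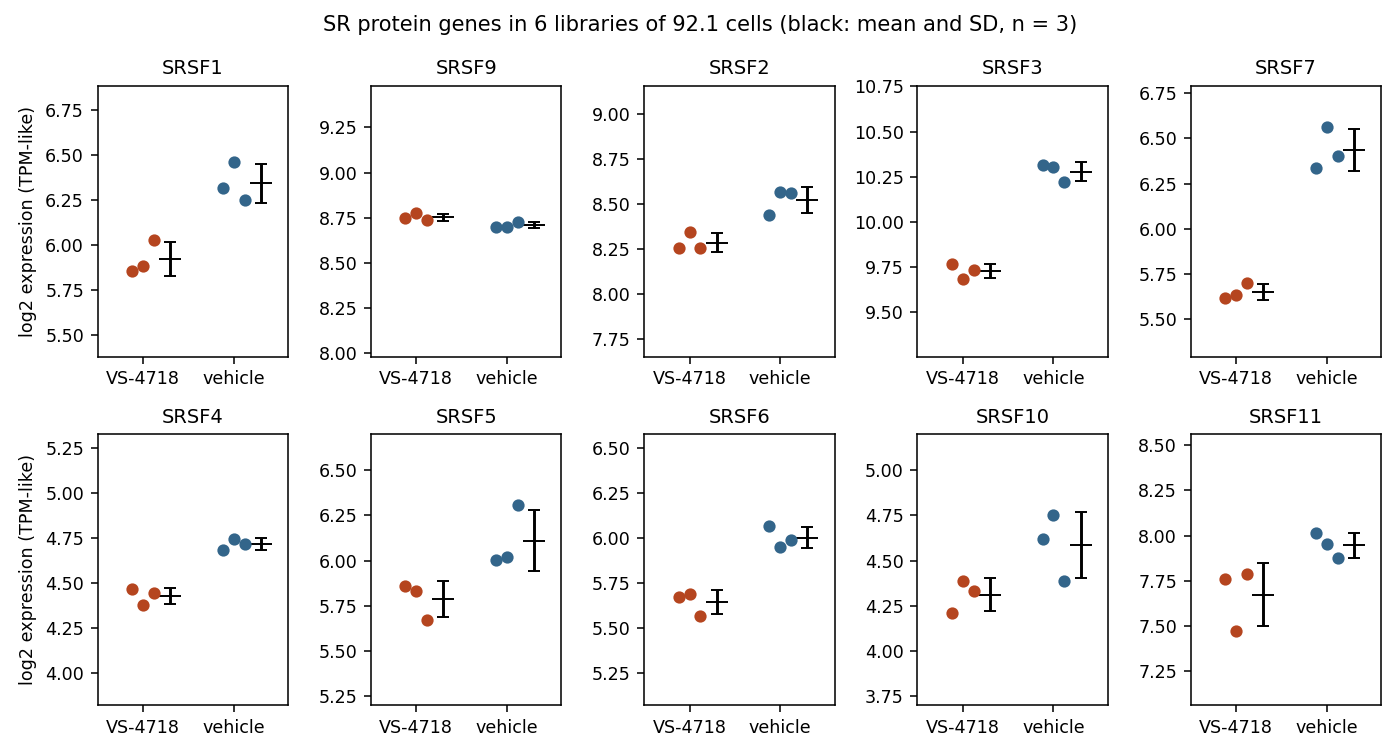
Log2 expression (TPM-like) of each SR protein gene in the 3 VS-4718 libraries (red) and the 3 vehicle libraries (blue), with the mean and SD in black; every panel spans the same number of log2 units. The groups are far apart for SRSF7 (mean 5.65 with VS-4718 and 6.43 in vehicle) and SRSF3 (9.73 with VS-4718 and 10.28 in vehicle), and almost level for SRSF9 (8.75 with VS-4718 and 8.71 in vehicle).

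SRSF3 and SRSF7 encode closely related SR proteins with a single RNA recognition motif; both act as export adaptors for the receptor NXF1, and SRSF7 also has a zinc knuckle. SRSF3 lies on chromosome 6 from 36594353 to 36605600 on the plus strand, and SRSF7 on chromosome 2 from 38743599 to 38751494 on the minus strand. SRSF3 stood at 9.77, 9.69 and 9.73 log2 units with VS-4718, against 10.31, 10.30 and 10.22 in vehicle. All 3 treated libraries were below all 3 vehicle libraries, with a gap of 0.45 between the nearest of them. SRSF3 fell by 0.55 log2 units (SE 0.04, adjusted p = 0.0138), or 31.7% as a ratio of geometric means, and had the smallest p of all tested rows.

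SRSF7 stood at 5.62, 5.63 and 5.70 log2 units with VS-4718, against 6.34, 6.56 and 6.40 in vehicle. Its groups were separated by 0.64, the widest gap in the family. SRSF7 fell by 0.79 log2 units (SE 0.07, adjusted p = 0.0233), or 42.0%, and ranked 76 among the 9229 rows counted from the most negative fold change. Both calls depended on the model and on which libraries were used. With all 6 libraries, neither gene passed in limma without its mean-variance trend (adjusted p = 0.0984 for SRSF3 and 0.0781 for SRSF7). The same was true against a minimum change of 1.2-fold (0.135 for each). With replicate number added to limma as a block the values were 0.124 for SRSF3 and 0.188 for SRSF7. No row of the table passed in any of these fits. SRSF3 kept its call without vehicle replicate 2 (adjusted p = 0.0432) and missed it when any other library was left out (0.0571 to 0.0867), while SRSF7 missed it in all 6 cases (0.0535 to 0.185).

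SRSF1, the founding member, favours nearby splice sites and also acts in export and translation; SRSF9 is its closest relative in domain layout, with a shorter tail. SRSF1 lies on chromosome 17 from 58003360 to 58007346 (minus strand) and SRSF9 on chromosome 12 from 120461668 to 120469793 (minus strand). SRSF1 stood at 5.85, 5.88 and 6.03 log2 units with VS-4718, against 6.32, 6.46 and 6.25 in vehicle. The groups did not overlap. Its log2 fold change was -0.42 (SE 0.08), which did not pass over all rows (adjusted p = 0.208).

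SRSF9 stood at 8.75, 8.77 and 8.73 log2 units with VS-4718, against 8.70, 8.70 and 8.73 in vehicle. The treated libraries were higher by a margin of 0.008 log2 units between the nearest of them. The log2 fold change was 0.04 (SE 0.03, adjusted p = 0.711), and it stayed between 0.03 and 0.08 over all 16 alternative settings. SRSF9 was thus the member with the least difference between groups, and it also had the smallest SD within each group, 0.02 with VS-4718 and 0.02 in vehicle.

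SRSF2 stays in the nucleus, marks nuclear speckles and also helps paused RNA polymerase to move on. It lies on chromosome 17 from 76734115 to 76737374 (minus strand). SRSF2 stood at 8.26, 8.35 and 8.26 log2 units with VS-4718, against 8.44, 8.56 and 8.56 in vehicle. Treated values were lower without overlap, and vehicle replicate 1 was the nearest to them. The log2 fold change was -0.24 (SE 0.05, adjusted p = 0.251), the least negative of the 9 lower members.

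SRSF4, SRSF5 and SRSF6 share a layout with a second, atypical RNA recognition motif, and SRSF4 has the longest tail of them. SRSF4 (chromosome 1, 29147743 to 29181987, minus strand) stood at 4.47, 4.38 and 4.44 log2 units with VS-4718, against 4.68, 4.75 and 4.72 in vehicle. The groups did not overlap; the log2 fold change was -0.29 (SE 0.07, adjusted p = 0.305). SRSF6 (chromosome 20, 43457928 to 43464247, plus strand) stood at 5.67, 5.69 and 5.57 with VS-4718, against 6.07, 5.95 and 5.99 in vehicle. Its groups were 0.26 apart, the third widest gap in the family after SRSF7 and SRSF3, with a log2 fold change of -0.36 (SE 0.06, adjusted p = 0.184).

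SRSF5 (chromosome 14, 69726900 to 69772005, plus strand) stood at 5.861, 5.829 and 5.672 log2 units with VS-4718, against 6.004, 6.019 and 6.305 in vehicle. No values overlapped, but vehicle replicate 3 stood above the other vehicle libraries. The log2 fold change was -0.32 (SE 0.10, adjusted p = 0.396), and without vehicle replicate 3 it was -0.22.

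SRSF10 differs from the rest in that its dephosphorylated form represses splicing, as in heat shock and mitosis; SRSF11 is a more distant, arginine and serine rich member. SRSF10 (chromosome 1, 23964804 to 23980927, minus strand) stood at 4.21, 4.39 and 4.33 log2 units with VS-4718, against 4.62, 4.75 and 4.39 in vehicle. VS-4718 replicate 2 lay just above vehicle replicate 3, so the groups touched, and the log2 fold change was -0.28 (SE 0.11, adjusted p = 0.498). SRSF11 (chromosome 1, 70205682 to 70253052, plus strand) stood at 7.76, 7.47 and 7.79 with VS-4718, against 8.01, 7.95 and 7.87 in vehicle. VS-4718 replicate 2 was well below the other treated libraries; the log2 fold change was -0.27 (SE 0.09, adjusted p = 0.420), and without that library it was -0.17.

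**Figure D2:**
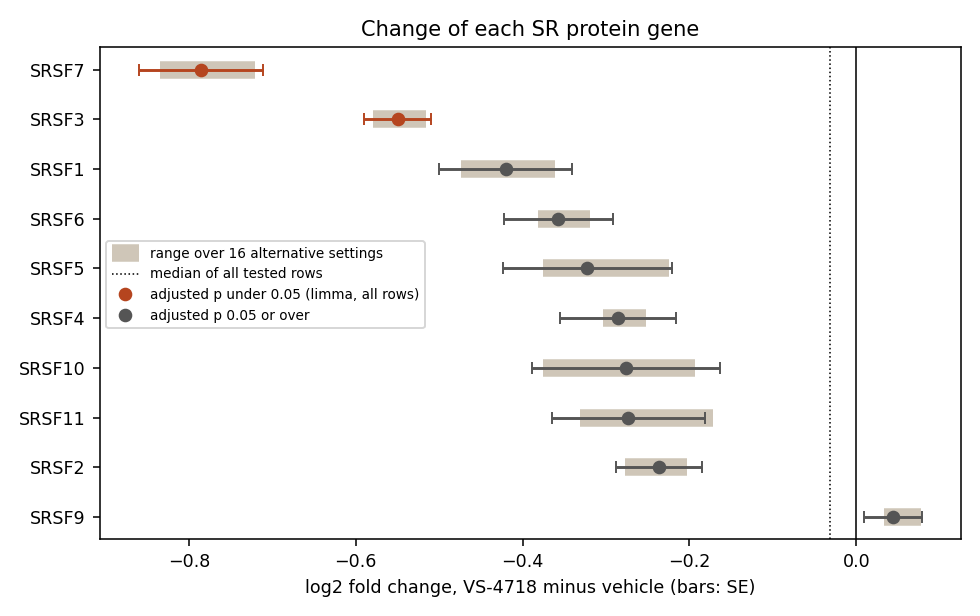
Log2 fold change of each SR protein gene, VS-4718 minus vehicle, with limma's SE; pale bars give the lowest and highest value over 16 alternative settings, and the dotted line is the median of all tested rows (-0.03). SRSF7 and SRSF3 (red) passed over all rows, and SRSF9 is the only member right of 0.

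SRSF12 lay under the filter and was not tested; it stood at -2.061, -1.201 and -0.702 log2 units with VS-4718, against -0.744, -1.854 and -0.658 in vehicle, with values of both groups interleaved. SRSF8 had no row among those used here.

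The order of levels within the family was nearly the same in both groups. Vehicle means ran from 10.28 for SRSF3 to 4.59 for SRSF10, and the largest fold change was -0.79 for SRSF7. Most of the order could therefore hardly change, and nothing is read from its similarity. SRSF3 was the highest, followed by SRSF9, SRSF2 and SRSF11, and the ranges of these neighbours were separate in each group. SRSF1, SRSF5, SRSF6 and SRSF7 followed close together, each overlapping its neighbour in both groups, and SRSF4 and SRSF10 were the lowest and overlapped each other. SRSF7 headed the middle set in vehicle (6.43, with SRSF1 at 6.34) but ranked below SRSF1 and SRSF5 with VS-4718 (5.65, with SRSF1 at 5.92 and SRSF5 at 5.79). That shift restates the fold change of SRSF7, which helped to choose the family.

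Added up on the linear scale, the 10 genes came to 2079, 2023 and 2061 TPM-like units with VS-4718, against 2635, 2668 and 2578 in vehicle. The mean sum was 2054 ± 28.9 with VS-4718 and 2627 ± 45.4 in vehicle (SD, n = 3 each), 21.8% lower. SRSF3 alone made up 41.3% ± 0.584 of the sum with VS-4718 and 47.3% ± 1.03 in vehicle. Without SRSF3 the sums were 1206 ± 5.76 with VS-4718 and 1385 ± 20.9 in vehicle, 12.9% lower. On the linear scale SRSF3 carried most of the difference: it averaged 848 units with VS-4718 and 1242 in vehicle. SRSF9, the next most abundant, averaged 431 units with VS-4718 and 418 in vehicle. Within groups no library was low throughout: the number of members with their lowest value was 3, 3 and 4 in the VS-4718 libraries and 5, 1 and 4 in the vehicle libraries.

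**Figure D3:**
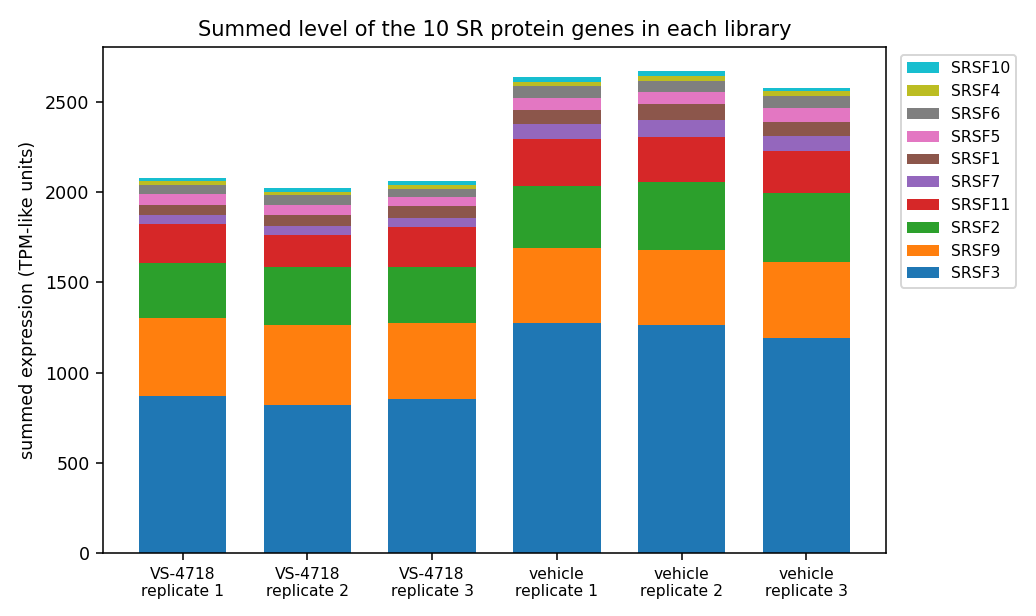
Summed expression (TPM-like units, linear axis from 0) of the 10 SR protein genes in each library, stacked from the most abundant, SRSF3, at the bottom. VS-4718 libraries sum to 2023 to 2079 and vehicle libraries to 2578 to 2668, and the SRSF3 block differs most.

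Proteins that work with SR proteins were counted in 5 lists, described by their counts in the same fit. These lists, the kinases among them, were chosen with earlier results of these data known. Their shares are set beside those of all rows as a description only, and nothing is tested with them. SR-related proteins also have arginine and serine rich domains: of 42 genes 41 had a row and 40 were tested, none passed in either direction, 34 had a lower mean (85.0%, against 58.2% of all tested rows) and the median was -0.11. Unadjusted, 11 lower (27.5%, against 6.74% of all rows) and 1 higher (2.50%, against 3.02%) had a limma p under 0.05. Without overlap, 12 were lower (30%, against 11.2% of all rows) and 1, RSRC2, was higher (2.50%, against 5.15%). TRA2A and TRA2B, the splicing activators nearest in kind to SR proteins, had log2 fold changes of -0.12 (SE 0.10) and -0.13 (SE 0.16), and their groups overlapped. Single libraries moved these values: with 1 left out TRA2A ran from -0.22 (without vehicle replicate 1) to -0.07 (without vehicle replicate 2), and TRA2B from -0.26 (without VS-4718 replicate 2) to -0.00065 (without vehicle replicate 2). TRA2B stood at 4.85, 5.27 and 4.91 log2 units with VS-4718, against 4.98, 5.41 and 5.04 in vehicle, with replicate 2 the highest in both groups. With replicate number as a block its SE was 0.07 (limma adjusted p = 0.638). Of the speckle scaffolds, SRRM2 had -0.02 (SE 0.08) and SON -0.31 (SE 0.18), with vehicle replicate 2 of SON high at 4.94; without that library SON had -0.09. SRRM1, a splicing coactivator, had -0.25 (SE 0.09) and PNN, an exon junction partner, -0.35 (SE 0.08, adjusted p = 0.280). In the spliceosome itself, U2AF1, which reads the 3′ splice site, had -0.07 (SE 0.05) and SNRNP70, which binds the 5′ splice site through U1, -0.10 (SE 0.06). The list ran from -0.59 for ZRSR2 to 0.53 for RSRP1, and the groups overlapped for both of these genes.

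Of 8 tested kinases of SR proteins, 2 rose (25%, against 0.0433% of all tested rows called higher) and none fell past the threshold. A lower mean was found in 3 of them (37.5%, against 58.2% of all rows) and a higher one in 5, and the median was 0.50. Without overlap, 4 were higher (50%, against 5.15% of all rows) and 2 were lower (25%, against 11.2%). The 2 were CLK1 (log2 fold change 1.11, adjusted p = 0.0282) and CLK3 (0.81, adjusted p = 0.0449); CLK2 (0.89, SE 0.18) and CLK4 (1.201, SE 0.37) were higher without overlap but did not pass. The 2 lower without overlap were PRPF4B (-0.36, SE 0.09, limma adjusted p = 0.305), a kinase of the spliceosome, and DYRK1A (-0.16, SE 0.10, limma adjusted p = 0.662), a kinase found in nuclear speckles. CLK1 kept its call without vehicle replicate 2 (0.0432) but not without any other library (0.0863 to 0.191), and CLK3 lost its call in all 6 such fits (0.130 to 0.246) and with no filter (0.0597). Neither passed without trend (0.0781 for CLK1 and 0.0804 for CLK3) or against 1.2-fold (0.135 for CLK1 and 0.242 for CLK3). With the replicate block the limma adjusted p was 0.199 for each. CLK4 passed without vehicle replicate 2 (1.66, adjusted p = 0.0432), a library in which it stood at 2.52 log2 units, against 1.15 and 1.14 in the other vehicle libraries. SRPK1 and SRPK2, kinases that act mainly in the cytoplasm, had -0.13 (SE 0.07) and 0.19 (SE 0.12), with overlapping groups.

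The remaining lists held no gene past the threshold. Import, phosphatase and export partners had 11 of 14 lower (78.6%, against 58.2% of all rows), with a median of -0.09. An unadjusted limma p under 0.05 was found for 1 lower gene (7.14%, against 6.74% of all rows). Without overlap, 2 were lower (14.3%, against 11.2% of all rows) and none higher (against 5.15%). TNPO3, the importer of SR proteins, had 0.13 (SE 0.11), PPP1CA, a catalytic subunit of protein phosphatase 1, 0.07 (SE 0.08), and the export factors NXF1 and ALYREF -0.07 (SE 0.07) and -0.13 (SE 0.24). Genes of nonsense-mediated decay and the exon junction had 12 of 14 tested lower (85.7%, against 58.2% of all rows), with a median of -0.10. Among them, 1 lower gene had an unadjusted limma p under 0.05 (7.14%, against 6.74% of all rows). In this list 4 were lower without overlap (28.6%, against 11.2% of all rows) and none higher (against 5.15%). UPF1, the decay helicase, had -0.12 (SE 0.09), its partner UPF3B -0.09 (SE 0.11), the kinase SMG1 -0.01 (SE 0.08), SMG5 -0.23 (SE 0.10), and the junction proteins EIF4A3 and RBM8A -0.11 (SE 0.07) and -0.14 (SE 0.07).

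The hnRNP proteins, which often oppose SR proteins at exons, had 20 of 26 lower (76.9%, against 58.2% of all rows) with a median of -0.07. An unadjusted limma p under 0.05 was found for 3 lower genes (11.5%, against 6.74% of all rows). Without overlap, 8 were lower (30.8%, against 11.2% of all rows) and 1 was higher (3.85%, against 5.15%). The 3 with that p were HNRNPD (-0.26, SE 0.05), HNRNPDL (-0.47, SE 0.08) and PTBP3 (-0.51, SE 0.11), all lower without overlap. The list ran from -0.51 for PTBP3 to 0.65 for PTBP2, and no higher gene had an unadjusted limma p under 0.05. HNRNPA1 had -0.05 (SE 0.06), HNRNPA2B1 -0.02 (SE 0.04), HNRNPC -0.10 (SE 0.05) and PTBP1 -0.08 (SE 0.07), with overlapping groups. HNRNPU was lower without overlap, at 6.21 ± 0.03 log2 units with VS-4718 and 6.32 ± 0.05 in vehicle (SD, n = 3 each; limma adjusted p = 0.593). HNRNPK, the most abundant of those named, was the 1 that was higher without overlap, at 10.98 ± 0.07 log2 units with VS-4718 and 10.89 ± 0.01 in vehicle (SD, n = 3 each; limma adjusted p = 0.527). Whether the SR protein genes differed from any of these lists was not tested.

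**Figure D4:**
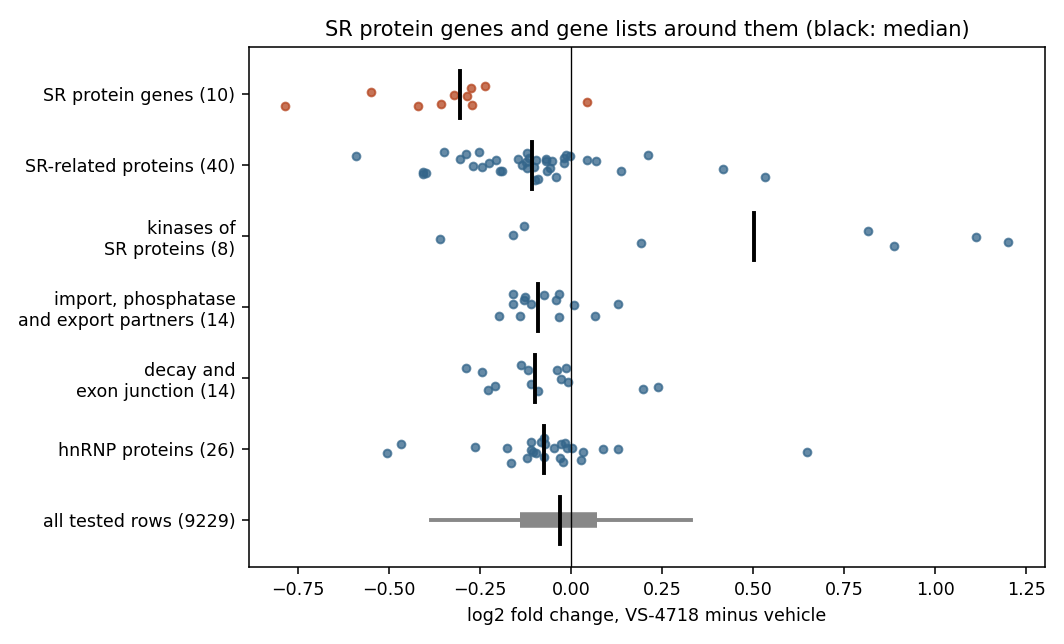
Log2 fold changes, VS-4718 minus vehicle, of the 10 SR protein genes (red) and of the tested members of 5 surrounding lists (blue), with medians in black; the grey bar shows the middle 50% and the grey line the 5th to 95th percentile (-0.39 to 0.33) of all 9229 tested rows. SR protein genes have a median of -0.30, kinases 0.50, and the other lists lie between -0.11 and -0.07.

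Finally, the rows whose pattern over the 6 libraries was most like the mean of the 10 members were sought among 3577 tested rows with a human symbol and a mean of at least 3.99 log2 units. The measure was Pearson's r, given as a description, and much of it is the step between groups that all these rows share. The 5 highest were MAT2A (r = 0.994), the enzyme that makes S-adenosylmethionine, PUM3 (0.991), a nucleolar RNA-binding protein, TBX2 (0.988), a transcription factor, EIF4G1 (0.982), the scaffold of translation initiation, and MAZ (0.982), a zinc finger transcription factor. MAT2A stood at 5.59, 5.59 and 5.56 log2 units with VS-4718, against 6.12, 6.16 and 6.14 in vehicle, and fell by 0.56 (SE 0.05, adjusted p = 0.0233). It lost its call when any library was left out (0.0947 to 0.171), without trend (0.0781), against 1.2-fold (0.276) and with the replicate block (0.224). The other rows were lower without overlap by smaller amounts, -0.32 for PUM3, -0.11 for TBX2, -0.20 for EIF4G1 and -0.13 for MAZ, and none of these passed.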

How the data were processed

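Cells were lysed in TRIzol, RNA was purified on columns, and libraries were made and read by a sequencing provider, per the labels' protocols. The submitters' processing notes name kallisto (no version) and GRCh38; index, annotation, filters and summing per gene are not stated in the sources used here. The authors deposited log2 values, 1 per gene symbol and library, which look TPM-like from their linear sums. After rows in the lowest 25% by mean were dropped, limma 3.58.1 in R 4.3.3 was fitted (trend, group as the only term, two-sided, Benjamini-Hochberg threshold 0.05). With 3 libraries against 3 an exact permutation of 1 gene cannot go below p = 0.1, so none was used. The members and the gene lists were chosen with earlier results of these data known. Genes named were the 10 members, list genes picked by role, list genes past the threshold, and the 5 rows most alike. ZRSR2, RSRP1, RSRC2, PRPF4B, DYRK1A, HNRNPD, HNRNPDL, PTBP2, PTBP3 and SRSF12 were named after their values were seen. In simulated data with 9229 rows, 200 rows were changed. Of those changed by 0.5, 1 and 2 log2 units, 26.9%, 68.7% and 97.0% were recovered, with 7 false calls. Recovery after adjustment depends on how many rows change, so these shares need not hold for the main fit. The 16 alternatives took a replicate block, 1 library less (6 fits), median scaling, no filter or a 50% filter, no trend, robust variances, quality weights, a 1.2-fold minimum, a pseudocount of 1 or human symbols only. Figures used matplotlib 3.10.9.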

Additional observations from a re-analysis of the deposited data

How the results depend on the processing

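The median of the SR protein genes stayed between -0.34 and -0.27 over all 16 alternatives, and 9 of 10 had a lower mean in each. Median scaling moved the median of all rows from -0.03 to 0.002 and that of the SR protein genes to -0.27. The counts of calls were less stable. With the replicate block 0 rows and 0 SR protein genes passed, in limma without trend 0 and 0, and against 1.2-fold 0 and 0 (793, 910 and 146 rows at an unadjusted limma p under 0.05); with a library left out the counts ran from 0 to 7 rows and from 0 to 1 SR protein genes. The block and the smaller sets leave fewer degrees of freedom, and 1.2-fold is a higher bar. Limma without trend kept all 6 libraries and the group term, and dropped only the mean-variance trend. Whether any of these features lowered the counts was not tested. No label states a pairing, so the main fit did not take the numbers as pairs. Residuals of same-numbered libraries correlated at 0.13, 0.05 and 0.03 across rows, and those of other pairs at -0.09 to 0.05. With VS-4718 replicate 3 the highest value was for vehicle replicate 2 (0.05). These values do not settle whether the numbers mark pairs. With the block the limma adjusted p was 0.124 for SRSF3, 0.188 for SRSF7, 0.199 for CLK1 and CLK3 and 0.224 for MAT2A. Signs near 0 turned with a library left out for SMG1 (-0.0596 to 0.0228), SRRM2 (-0.0589 to 0.0222), ALYREF (-0.385 to 0.0152) and UPF3B (-0.157 to 0.000708), and with median scaling for SMG1 (0.0244), SRRM2 (0.0151) and HNRNPA2B1 (0.0156). Of 28 list genes picked by role that did not pass, 21 had a fold change that moved by over 1.5 times or turned in at least 1 fit with a library left out. List genes named after their values were seen were not part of that count. Depth is unknown, so no counting limit can be given.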
